A study of Mus musculus with 15 samples.

Results

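Expression of 9 genes, out of 27179 in the deposited tables, was followed across 5 culture conditions of a mouse kidney cell model, induced renal tubular epithelial cells (iRECs): Kap, Acsm2, Acsm3, Ces2b, Gatm, Miox, Ass1, Aldh1a1 and Khk. They were chosen by name, as the androgen-regulated gene Kap with metabolic enzymes of the proximal tubule, after the rise of Kap in gels had been seen. The values that led to the choice are the fold changes over 2D, so those of Kap are given as a description with no test. All 9 were found in each table.

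iRECs are cells reprogrammed to a tubule-like state, kept as 1 cell line. RNA was sequenced on day 7 from 2D culture, from hand-cast Matrigel, fibrin and collagen I, and from cells that a bioprinter placed in fibrin with collagen I, called printed here, although the name of their table mentions collagen only. All were grown in Renal Epithelial Growth Medium. Each condition had 3 libraries, from passages 35, 48 and 53, and the 5 conditions of a passage were set up side by side from a common pool of cells. The 15 libraries are thus cultures of 1 line, and p-values measure the spread between passages of that line only.

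The proximal tubule reabsorbs filtered solutes and is a main site of amino acid, carbohydrate and xenobiotic metabolism in the kidney. Kap, the kidney androgen-regulated protein, is among the most abundant proximal tubule transcripts of the mouse and is classically controlled by androgens. The other members are enzymes: Acsm2 and Acsm3 activate medium-chain fatty acids and related acids with coenzyme A, Ces2b is a carboxylesterase, Gatm makes the precursor of creatine, Miox opens the ring of myo-inositol, Ass1 joins citrulline and aspartate on the way to arginine, Aldh1a1 makes retinoic acid from retinal, and Khk starts fructose breakdown.

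In the GENCODE vM21 annotation of GRCm38 the members lie as follows. Kap lies on chromosome 6 from 133849851 to 133853762. Acsm2, from 119554340 to 119600690, and Acsm3, from 119760923 to 119787513, are both on chromosome 7. Ces2b lies on chromosome 8 from 104831572 to 104840093, among other members of the Ces2 family. Gatm, from 122594467 to 122611303, and Ass1, from 31470207 to 31520672, share chromosome 2. Miox lies on chromosome 15 from 89334398 to 89337015, Aldh1a1 on chromosome 19 from 20492715 to 20643465, and Khk on chromosome 5 from 30921431 to 30931248.

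Start-site regions from RefSeq (GRCm38.p6; 250 bases before to 50 after a start) were matched for 8 of the 9 members, and Ces2b had no entry. The region of Kap is shown because the choice of members started from it, that of Acsm2 because it passed the authors' test as higher in every hand-cast gel, and that of Ass1 because its libraries were lower than 2D in every microenvironment. Capitals mark TATAAA, the core of a TATA box, and in Acsm2 also TGTTCT.
Kap (minus strand, chr6:133853618-133853917): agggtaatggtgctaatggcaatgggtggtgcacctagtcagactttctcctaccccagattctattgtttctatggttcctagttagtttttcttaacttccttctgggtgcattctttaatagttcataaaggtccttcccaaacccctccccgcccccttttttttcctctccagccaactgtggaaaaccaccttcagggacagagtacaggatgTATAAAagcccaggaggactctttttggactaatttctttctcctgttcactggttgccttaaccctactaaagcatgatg
Acsm2 (plus strand, chr7:119554090-119554389): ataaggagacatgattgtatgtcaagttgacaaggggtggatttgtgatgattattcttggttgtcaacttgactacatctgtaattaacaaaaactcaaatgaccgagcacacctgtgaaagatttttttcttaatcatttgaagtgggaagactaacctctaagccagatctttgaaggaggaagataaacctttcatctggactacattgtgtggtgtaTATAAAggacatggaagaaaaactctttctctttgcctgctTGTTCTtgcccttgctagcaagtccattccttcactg
Ass1 (plus strand, chr2:31470020-31470319): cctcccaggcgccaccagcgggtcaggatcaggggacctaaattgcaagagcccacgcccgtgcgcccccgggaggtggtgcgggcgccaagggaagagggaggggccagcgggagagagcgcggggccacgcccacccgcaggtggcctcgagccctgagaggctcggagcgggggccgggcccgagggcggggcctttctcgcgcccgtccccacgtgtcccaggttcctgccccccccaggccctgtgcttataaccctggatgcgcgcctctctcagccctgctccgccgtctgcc

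TATAAA, searched on the sense strand, stood at position -31 from the start in Kap, at -28 in Acsm2 and at -40 in Miox, and in 8.32% of all 32851 regions of that length. The Ass1 region was 74% G and C, against 44.7% in Kap and 38.3% in Acsm2. A full androgen response element (AGAACA, 3 free bases and TGTTCT, the same on both strands) was in no member's region and in 0.00913% of all regions. Its shorter arm, AGAACA or TGTTCT, was found among the members only in the region of Acsm2 at position 13 after the start, and in 19% of all regions. The HNF4 direct repeat (AGGTCA, 1 free base and AGGTCA) and the HNF4 core CAAAGTCCA, on both strands, were in no member's region and in 0.0396% and 0.475% of all regions. These are matches of letters in a short window and say nothing of a factor's presence on the DNA.

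The deposited tables hold 1 value per gene and comparison. Their mean read counts carry 15 printed digits, which was enough to recover the whole reads of each of the 15 libraries for 15374 genes, all 9 members included. Recovered reads were divided by size factors between 0.853 and 1.26, and these normalized reads are the levels given for single libraries. The libraries of a condition are called a, b and c, from the largest to the smallest size factor behind the deposited mean read counts. The passages of the libraries are not known, and the same letter in 2 conditions is no pair. The recovered genes, those with a mean of at most 2000 reads, held 4016998 to 5590647 reads per library, which is part of each library and not its depth.

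Kap was low on plastic and high in the hand-cast gels. Its normalized reads in 2D were 325, 236 and 98.9 in libraries a, b and c. Matrigel had 4233, 3704 and 2140, the highest of all conditions. Collagen I had 1840, 1611 and 2492, and fibrin 545, 1490 and 1048. The printed cultures had 176, 249 and 853. Every library of the hand-cast gels was above every 2D library, whereas 2 printed libraries lay within the 2D range and printed c alone stood above it.

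The means of Kap ran from Matrigel (3359 ± 1088 normalized reads, SD, n = 3) over collagen I (1981 ± 457), fibrin (1028 ± 473) and printed (426 ± 372) to 2D (220 ± 114). Matrigel and collagen I overlapped in their libraries, as did fibrin and printed, and printed and 2D. Collagen I and fibrin, the neighbours in the middle of that order, did not. Against 2D the ratio of means was 15.3 in Matrigel, 9 in collagen I, 4.67 in fibrin and 1.94 in the printed cultures. Libraries fully above 2D were found for 11.2% of 8369 genes in Matrigel, 13.6% in collagen I and 15.1% in fibrin, and nothing is read from the place of Kap among them.

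In the authors' deposited table, the log2 fold change of Kap was 3.02 ± 0.26 (SE) in Matrigel, 2.86 ± 0.27 in collagen I, 1.99 ± 0.26 in fibrin and 0.51 ± 0.31 in printed. Ranked among genes with a mean of at least 100 reads in the authors' deposited table, Kap was number 1 of 11346 from the top in Matrigel, 6 of 11293 in collagen I, 44 of 11371 in fibrin and 816 of 11394 in printed. The deposited values are closer to 0 than those from recovered means, which were 3.93, 3.17, 2.22 and 0.95 on the log2 scale in the same order. Across all genes compared, deposited and recovered log2 values differed by a median of 0.04 to 0.06.

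**Figure D1:**
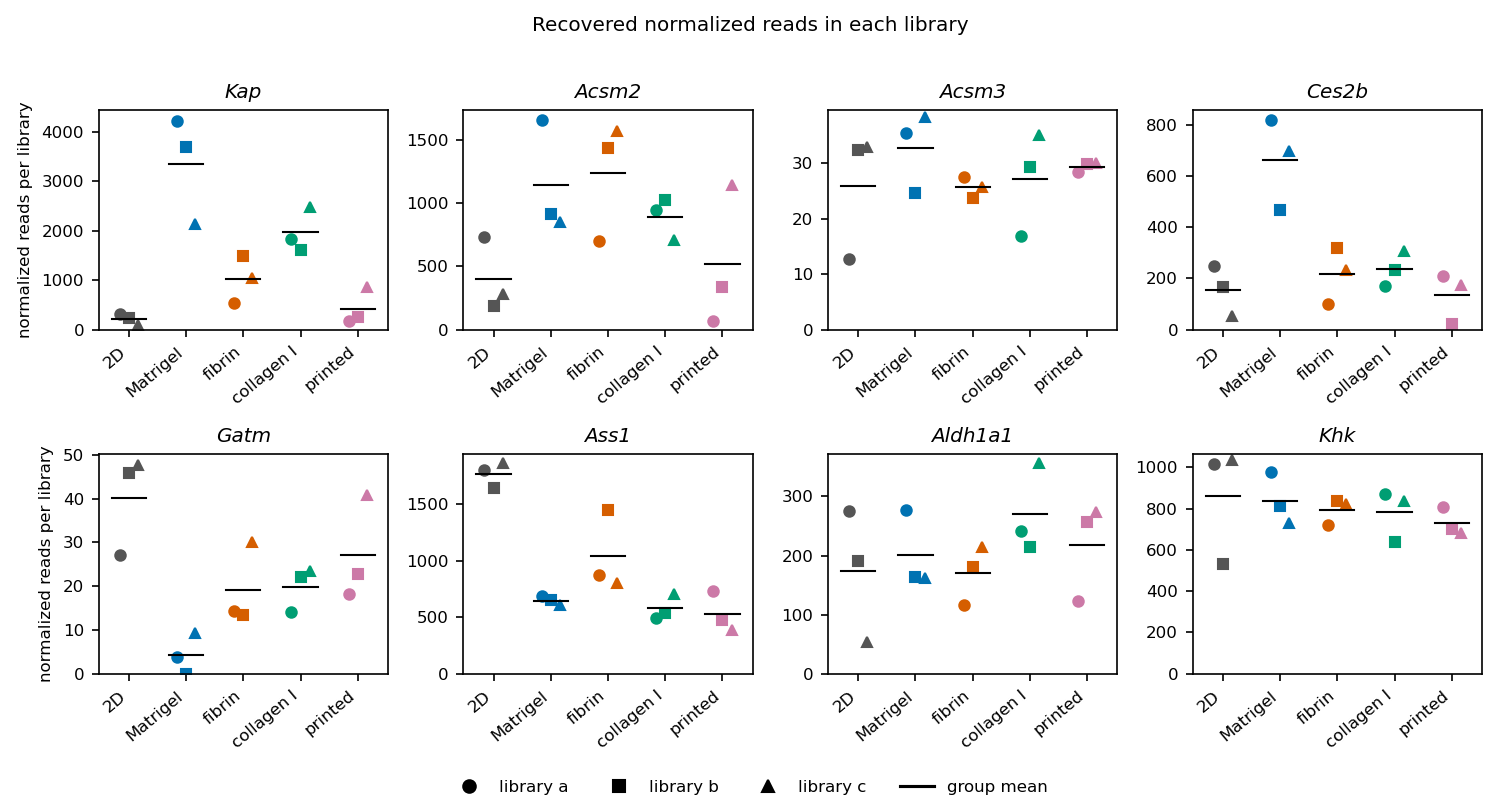
Normalized reads (y axis, linear from 0) of 8 members in each of the 3 libraries (points) of 5 conditions (x axis), with the group mean as a line. Kap libraries of Matrigel sit between 2140 and 4233 and those of 2D between 98.9 and 325, and all Ass1 libraries outside 2D sit under the lowest 2D value of 1640.

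Hormone receptors on the list followed ranged from a few reads to well expressed. The glucocorticoid receptor Nr3c1 had 905 to 1346 reads in all 15 libraries, and the estrogen receptor Esr1 had 2 to 26. Of the 9 steroid and thyroid hormone receptors listed, 5 had an adjusted p in each authors' deposited table, and 0 of 5 passed 0.05 in any, or in the limma fit. Without adjustment 1 passed in Matrigel and 0 elsewhere. Thrb, a thyroid hormone receptor, was at -0.72 ± 0.25 in Matrigel, and the mineralocorticoid receptor Nr3c2 at -0.63 ± 0.35 in fibrin, in the authors' deposited table. Thra lay between -0.29 ± 0.24 and 0.24 ± 0.20 there, and Esr2, Pgr and Prlr had means of at most 0.175, 0.384 and 1.17 reads in the authors' deposited table.

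Androgen-responsive genes of the mouse kidney other than Kap were mixed. In the authors' deposited table, Odc1, which makes putrescine from ornithine, rose in Matrigel (0.97 ± 0.26) and collagen I (1.22 ± 0.28), with 0.82 ± 0.30 in fibrin and 0.48 ± 0.23 in printed. Nudt19, a peroxisomal CoA hydrolase, rose in Matrigel (0.77 ± 0.17), fibrin (0.80 ± 0.23) and collagen I (0.76 ± 0.22). Cyp4a12a, a male-biased hydroxylase, had 0.62 ± 0.30 in Matrigel and -0.25 ± 0.30 in collagen I and passed in no authors' deposited table. Its 2D reads of 1248, 356 and 110 spanned every other condition, and Cyp4a12a shares reads with its near copy Cyp4a12b. Of the 6 listed genes with an adjusted p, Kap left out, 2 rose in Matrigel, 1 in fibrin, 2 in collagen I and 0 in printed, where 1 passed without adjustment, in the authors' deposited table. Of all genes tested there, 4.03% passed as higher in Matrigel, 5.19% in fibrin, 6.51% in collagen I and 2.51% in printed. A limma fit to the recovered reads could be made for 3 of the 6, not for Odc1 or Nudt19, and passed 0 in each comparison.

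Of the 7 members other than Kap and Miox, which had an adjusted p in each comparison, 4 passed 0.05 in Matrigel in the authors' deposited table: Acsm2 and Ces2b higher, Ass1 and Gatm lower. All genes tested there passed at 6.36%. Acsm2 alone passed in fibrin, where 8.3% of all genes did in the authors' deposited table, and Acsm2 and Ass1 in collagen I, where 11.2% did. Ass1 alone passed in printed, where 3.18% of genes did in the authors' deposited table. The members were chosen with these contrasts known, so nothing is read from their shares.

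**Figure D2:**
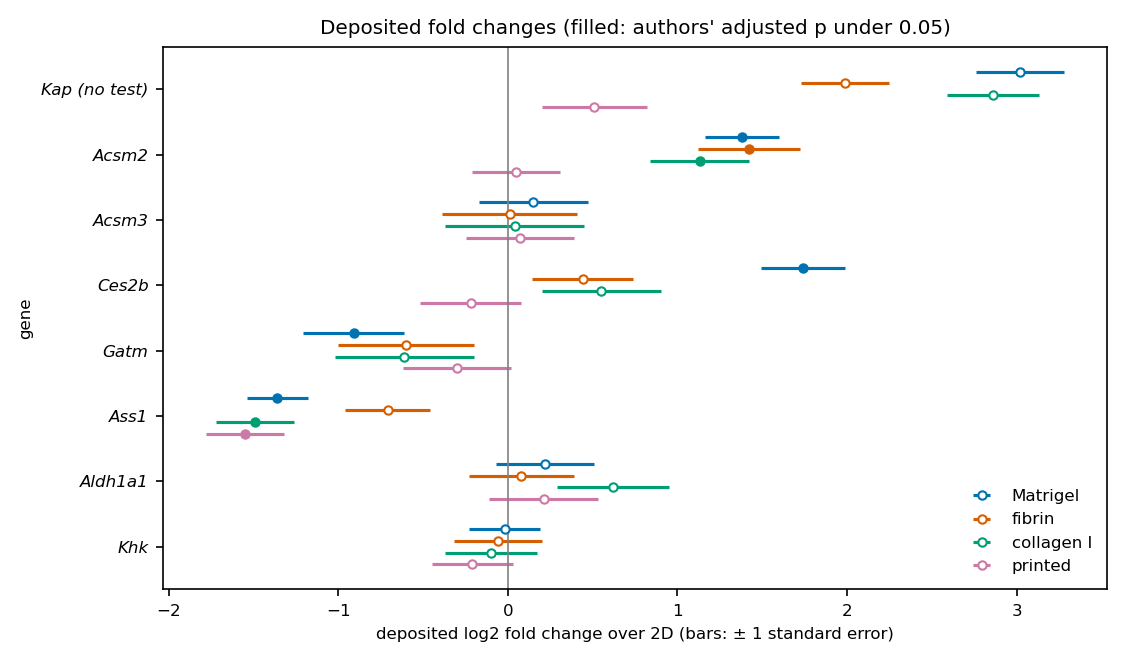
Deposited log2 fold changes over 2D (x axis, points) with 1 standard error (bars) for 8 members (y axis) in 4 comparisons (colours), filled where the authors' adjusted p was under 0.05, with Kap drawn open because it has no test. Kap lies at 3.02, 2.86 and 1.99 in the hand-cast gels and 0.51 in printed, while Ass1 lies between -1.55 and -0.71.

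Ass1 was the member with the most even change. Its normalized reads in 2D were 1796, 1640 and 1864, the highest in the study. Matrigel had 683, 652 and 604, collagen I 496, 538 and 702, and printed 732, 477 and 388. Fibrin lay between, with 874, 1449 and 801. All 12 libraries outside 2D were below all 3 of 2D, an arrangement seen for 8.96% of genes in Matrigel, 14.5% in fibrin, 14.1% in collagen I and 8.71% in printed.

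Ass1 fell in the authors' deposited table by 1.36 ± 0.18 on the log2 scale in Matrigel (adjusted p 6.5e-12), by 1.49 ± 0.23 in collagen I (2.6e-08) and by 1.55 ± 0.23 in printed (2.6e-08). In printed only 0.675% of genes passed as lower in the authors' deposited table, and Ass1 was number 6 from the bottom of 11394 genes. In fibrin the authors' deposited table had -0.71 ± 0.25 with an adjusted p of 0.051. A limma fit to the recovered reads, in which 3.54% of genes passed in Matrigel, 11% in fibrin, 14.8% in collagen I and 4.56% in printed, gave adjusted p values of 0.0046, 0.0009 and 0.0013 for Matrigel, collagen I and printed, and 0.045 for fibrin. Leaving out each library in turn kept Matrigel, collagen I and printed below 0.05 in 6 of 6 fits each, and kept fibrin there in 1 of 6.

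The rest of the arginine list did not follow Ass1 down. Asl, the next enzyme in the path, was at 0.01 ± 0.17, -0.05 ± 0.22, 0.08 ± 0.21 and -0.02 ± 0.20 in Matrigel, fibrin, collagen I and printed in the authors' deposited table. Arg2, the mitochondrial arginase, rose in all 4, by 0.93 ± 0.20, 0.87 ± 0.26, 1.44 ± 0.26 and 0.76 ± 0.24 in the authors' deposited table. Ass1 was the only one of 10 listed genes with an adjusted p that passed as lower in any authors' deposited table.

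Acsm2 was above 2D on average in the hand-cast gels, with libraries that varied widely. Its normalized reads in 2D were 734, 189 and 281. Matrigel had 1656, 916 and 852, fibrin 701, 1438 and 1572, and collagen I 945, 1025 and 713. Printed had 69.6, 336 and 1144, with the lowest library of all and 1 above every 2D library. Only Matrigel cleared every 2D library, since fibrin a and collagen I c fell just under 2D a.

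In the authors' deposited table, Acsm2 rose by 1.38 ± 0.22 in Matrigel (adjusted p 8e-08), by 1.42 ± 0.30 in fibrin (0.00014) and by 1.13 ± 0.29 in collagen I (0.002), and was at 0.05 ± 0.26 in printed. The limma fit to the recovered reads gave larger standard errors, 1.68 ± 0.73, 1.78 ± 0.73 and 1.38 ± 0.73 in the gels. Its adjusted p values were 0.24, 0.13 and 0.22, so none of the 3 calls was kept there. Whether passage entered the authors' fit is not stated there.

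Acsm3, on the same chromosome, stayed low and level, with 25.7 to 32.8 normalized reads in the group means. Its libraries ran from 12.7 in 2D a to 38.3 in Matrigel c, and its deposited log2 fold changes lay between 0.01 and 0.15 in the authors' deposited table. Acsm1, a further synthetase of this family, rose in Matrigel (1.15 ± 0.32) and collagen I (1.48 ± 0.41) in the authors' deposited table, and the limma fit kept both calls. Acsm5 passed in none.

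Ces2b was highest in Matrigel. Its normalized reads were 816, 467 and 698 there, against 247, 167 and 52.3 in 2D. Fibrin had 99.8, 318 and 231, collagen I 172, 232 and 306, and printed 210, 23.7 and 175. The Matrigel libraries were above those of every other condition, and the remaining conditions overlapped with each other.

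Ces2b rose by 1.74 ± 0.25 in Matrigel in the authors' deposited table (adjusted p 1.5e-09). There it was at 0.44 ± 0.30 in fibrin, 0.55 ± 0.35 in collagen I and -0.22 ± 0.30 in printed, with adjusted p values of 0.46, 0.36 and 0.91 in the authors' deposited table. The limma fit to the recovered reads gave 2.30 ± 0.71 for Matrigel with an adjusted p of 0.087, and values from 0.034 to 0.32 when 1 library was left out. Only the fit without 2D a passed.

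Ces2c, a close paralog of Ces2b, rose in all 4 microenvironments in the authors' deposited table (1.75 ± 0.26, 0.88 ± 0.28, 1.29 ± 0.29 and 0.94 ± 0.22 in Matrigel, fibrin, collagen I and printed). Because the Ces2 genes are near copies of each other, reads can be split between them, and the values of each are uncertain to that extent. Of the other esterases, Ces1f rose (1.30 ± 0.32) and Ces1g fell (by 1.01 ± 0.27) in Matrigel in the authors' deposited table. Of 8 esterases with an adjusted p in Matrigel, Ces2b included, 4 passed as higher and 1 as lower in the authors' deposited table, where 4.03% of all genes passed as higher and 2.32% as lower. The limma fit did not keep the call of Ces1g (adjusted p 0.22), and it could not be made for Ces2c.

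Gatm was a low gene that was lowest in Matrigel. Its normalized reads in 2D were 27, 45.8 and 47.7. Matrigel had 3.72, 0 and 9.32, with a single library at 0. Fibrin had 14.3, 13.4 and 30.1, collagen I 14, 22.2 and 23.4, and printed 18.3, 22.7 and 40.7. Matrigel and collagen I lay wholly below 2D, and 10 of the 12 libraries outside 2D did. Libraries wholly below 2D were found for 8.96% of 8369 genes in Matrigel and 14.1% in collagen I.

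In the authors' deposited table, Gatm fell by 0.91 ± 0.30 in Matrigel with an adjusted p of 0.038, and had -0.60 ± 0.40, -0.61 ± 0.41 and -0.30 ± 0.32 in fibrin, collagen I and printed. The recovered group means were 9.24-fold lower in Matrigel than in 2D (4.35 ± 4.69 against 40.2 ± 11.5 normalized reads, SD, n = 3), a wider gap than the deposited value. The limma fit to the recovered reads gave -3.45 ± 0.69 with an adjusted p of 0.013, and 0.0051 to 0.054 with 1 library left out. Without 2D c the fit did not pass. Gamt, which turns the product of Gatm into creatine, was at 0.53 ± 0.19 in Matrigel, and the creatine transporter Slc6a8 at -0.27 ± 0.18, with no call for either in the authors' deposited table.

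Miox was close to absent. It had 0 reads in every library but those with 4 reads in collagen I c and 2 in printed b. A count of 0 allows up to 3 reads if reads are independent, a limit for counting error only. As given at the end, single reads were rarer than counts of 2, so that limit may be too low. Other enzymes of inositol and glucuronate handling were well expressed, and Ugdh, which makes UDP-glucuronate, rose in Matrigel (0.82 ± 0.24), collagen I (1.37 ± 0.23) and printed (1.06 ± 0.22) in the authors' deposited table. Rgn, the lactonase of this path, rose in Matrigel (0.70 ± 0.17) and collagen I (0.80 ± 0.21), and Impa1, an inositol phosphatase, in collagen I (0.68 ± 0.21), in the authors' deposited table.

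Aldh1a1 had the widest spread of the members within 2D on the log2 scale, at 275, 191 and 54.5 normalized reads. Matrigel had 277, 164 and 162, fibrin 116, 181 and 215, collagen I 241, 214 and 356, and printed 123, 257 and 273. All 4 conditions overlapped with 2D. The deposited log2 fold changes were 0.22 ± 0.29, 0.08 ± 0.31, 0.62 ± 0.33 and 0.21 ± 0.32 in that order, and none passed in the authors' deposited table. Its paralog Aldh1a3 rose in printed (1.78 ± 0.30) in the authors' deposited table, and Aldh1a2 rose in collagen I (0.73 ± 0.21). The retinol dehydrogenase Rdh10 fell in Matrigel (by 0.79 ± 0.23) in the authors' deposited table.

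Khk was the steadiest of the well-expressed members. Its normalized reads were 1014, 531 and 1037 in 2D, 976, 810 and 732 in Matrigel and 721, 835 and 822 in fibrin. Collagen I had 871, 639 and 836, and printed 809, 703 and 681. Every library outside 2D lay within the 2D range, and the deposited log2 fold changes ran from -0.21 ± 0.24 to -0.02 ± 0.21 in the authors' deposited table.

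On the list of fructose breakdown and gluconeogenesis, which holds Khk, 3 of 9 genes with an adjusted p passed in Matrigel, 1 of 8 in fibrin, 2 of 8 in collagen I and 1 of 10 in printed, all higher, in the authors' deposited table. Over all genes tested there, the share that passed as higher was 4.03% in Matrigel, 5.19% in fibrin, 6.51% in collagen I and 2.51% in printed. Slc2a2, a glucose and fructose transporter, rose in Matrigel (1.96 ± 0.26), fibrin (1.11 ± 0.30) and collagen I (1.28 ± 0.32) in the authors' deposited table. Glyctk, a glycerate kinase, rose in Matrigel (0.66 ± 0.22) in the authors' deposited table. Pck1, which commits to gluconeogenesis, rose in collagen I (0.86 ± 0.26) and printed (0.95 ± 0.24) in the authors' deposited table. The limma fit did not keep the calls of Glyctk in Matrigel (adjusted p 0.25) and Slc2a2 in fibrin (0.087).

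Per kilobase of exon, the order in 2D was Ass1 (732 ± 47.4 normalized reads per kilobase, SD, n = 3), Khk (479 ± 159), Kap (311 ± 161), Acsm2 (54.1 ± 39.3), Ces2b (45.6 ± 28.7), Aldh1a1 (35.1 ± 22.5), Gatm (13.4 ± 3.82) and Acsm3 (5.27 ± 2.34). The means of Acsm2, Ces2b and Aldh1a1 differed by less than their SDs. In Matrigel Kap led at 4751 ± 1540 per kilobase, ahead of Khk at 467 ± 69.2 and Ass1 at 268 ± 16.6. In printed Kap was at 603 ± 526 and Khk at 407 ± 38.2, and these means differ by less than the SD of Kap.

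The libraries of a condition differed more for Kap, Acsm2, Ces2b and Aldh1a1 than for most genes of like level. In printed, the SDs of Kap, Acsm2 and Ces2b on the log2 scale were 1.19, 2.01 and 1.72, against medians of 0.21, 0.22 and 0.31 for genes within 2-fold of their level. In fibrin the SDs were 0.74, 0.64 and 0.86, against 0.12, 0.13 and 0.20. The SD of Aldh1a1 exceeded that of 93.5% of genes of like level in 2D, 80.7% in Matrigel, 88.6% in fibrin, 62.3% in collagen I and 80.6% in printed. That of Ass1 exceeded 98.4% of them in fibrin and 89.4% in printed, but 7.22% in 2D. Acsm3, on the same chromosome as Acsm2, had an SD of 0.04 in printed. In printed, Kap, Acsm2 and Ces2b did not share a high library. Printed c was highest for Kap and Acsm2, and printed a for Ces2b. In 2D and in Matrigel, library a was the highest for all of these genes, and fibrin a was the lowest for all of them. In collagen I, library c was highest for Kap and Ces2b and library b for Acsm2.

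**Figure D3:**
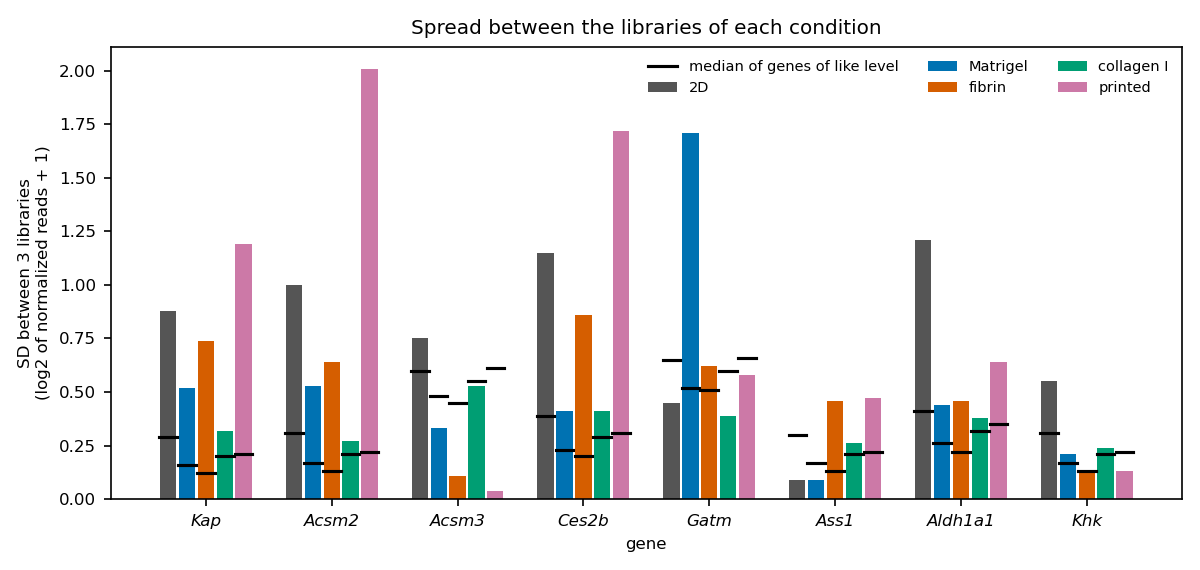
SD between the 3 libraries of each condition (bars, log2 of normalized reads + 1) for 8 members, with the median SD of genes within 2-fold of the member's level as a black line. Acsm2, Ces2b and Kap reach 2.01, 1.72 and 1.19 in printed, while Ass1 is at 0.09 in 2D.

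Differences between microenvironments were tested for the 7 members other than Kap and Miox in 6 pairs, 42 tests in all, from the deposited fold changes and their standard errors with adjustment over all genes. Matrigel exceeded printed for Ces2b, by 1.96 ± 0.39 on the log2 scale (1.74 against -0.22, adjusted p 0.00034). Matrigel also exceeded printed for Acsm2, by 1.33 ± 0.34 (adjusted p 0.022), and fibrin exceeded printed for Acsm2, by 1.36 ± 0.40 (adjusted p 0.046). These 3 passed. Of all genes, 0.612% passed for Matrigel against printed and 1.4% for fibrin against printed. The share was 1.13% for Matrigel against fibrin, 0.478% for Matrigel against collagen I, 0.548% for fibrin against collagen I and 0.89% for collagen I against printed, pairs in which 0 members passed. The libraries of Ces2b did not overlap between Matrigel and printed, as was true of 23.9% of 8369 genes, whereas those of Acsm2 overlapped in both pairs. Gatm libraries were lower in Matrigel than in each other microenvironment, and those of Ces2b higher. Ass1 libraries were lower in Matrigel than in fibrin, and higher in fibrin than in collagen I and printed. Separate libraries were found for 34.1% of genes for Matrigel against fibrin, 29.3% for Matrigel against collagen I, 20.1% for fibrin against collagen I, 32.6% for fibrin against printed and 27.5% for collagen I against printed.

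The limma fit to the recovered reads gave adjusted p values of 0.054 for Ces2b and 0.19 for Acsm2 in Matrigel against printed, and 0.12 for Acsm2 in fibrin against printed, so none of the 3 was kept. That fit passed 2.44% of genes in the Matrigel and printed pair and 7.17% in the fibrin and printed pair, among them Ass1 for fibrin against printed (0.97 ± 0.24, adjusted p 0.027) and Gatm for Matrigel against printed (-2.87 ± 0.69, adjusted p 0.042). From the deposited values these differences were 0.84 ± 0.34 (adjusted p 0.38) and -0.61 ± 0.44 (adjusted p 1).

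In the other 4 pairs the limma fit passed no member, with 3.93% of genes passing for Matrigel against fibrin, 3.39% for Matrigel against collagen I, 1.52% for fibrin against collagen I and 7.73% for collagen I against printed. Ces2b in Matrigel minus fibrin was 1.30 ± 0.39, with a 95% interval of 0.53 to 2.07 and an adjusted p of 0.072, and in Matrigel minus collagen I 1.20 ± 0.43 (0.35 to 2.04, adjusted p 0.3). For Acsm2 in collagen I minus printed the interval was 0.32 to 1.83 (adjusted p 0.27). Khk had differences between 0.03 and 0.18 in size, with intervals within -0.70 and 0.84. Kap, given as a description, had 2.51 ± 0.41 for Matrigel minus printed, 2.35 ± 0.41 for collagen I minus printed and 0.16 ± 0.38 for Matrigel minus collagen I.

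**Figure D4:**
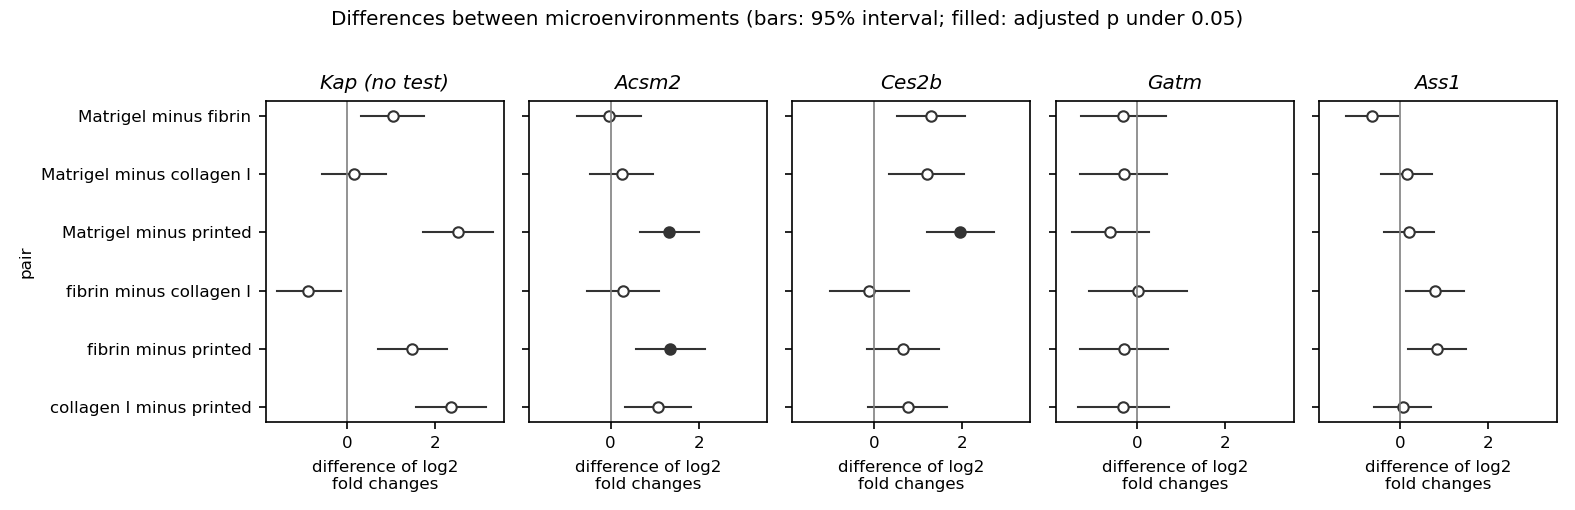
Differences of deposited log2 fold changes (x axis, points) with 95% intervals (bars) for 5 members (panels) and 6 pairs of microenvironments (y axis), filled where the adjusted p was under 0.05. The filled points are Acsm2 at 1.33 and 1.36 and Ces2b at 1.96, and Kap is drawn with no test.

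The genes whose 4 deposited fold changes were nearest to those of Kap, among 11175 genes with a mean of at least 100 reads in all 4 tables, were Slc16a6, Pcdh10, Tmem27, Sprr2h and Nefh. Their root mean squared differences from Kap over the 4 comparisons were 0.56, 0.61, 0.74, 0.77 and 0.79 on the log2 scale. Slc16a6, a carboxylate transporter, had 2.49, 2.03, 1.93 and 0.85 in Matrigel, fibrin, collagen I and printed in the authors' deposited table. Tmem27, a proximal tubule membrane protein also called collectrin, had 2.24, 3.13, 2.87 and 1.02 in the authors' deposited table. Sprr2h has near copies in the Sprr2 cluster and is uncertain. Acsm2 was the nearest member, number 38 at 1.25, and Ces2b number 204 at 1.58. The 4 comparisons share the 2D libraries.

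Enzymes listed beside the members were counted over the 8 metabolic lists, 94 genes without the members. In Matrigel, 64 of them had an adjusted p in the authors' deposited table, of which 16 passed as higher and 2 as lower, with a median log2 fold change of 0.20 against -0.00 over all genes. In collagen I it was 13 higher and 2 lower of 60 (median 0.20 against 0.01), in fibrin 6 and 1 of 61 (0.05 against 0.00), and in printed 5 and 0 of 66 (0.06 against 0.01), in the authors' deposited table. The background for higher and lower calls in the authors' deposited table was 4.03% and 2.32% in Matrigel, 6.51% and 4.65% in collagen I, 5.19% and 3.11% in fibrin, and 2.51% and 0.675% in printed. The limma fit could be made for 35 of these enzymes and passed 5 as higher in Matrigel, 2 in fibrin, 4 in collagen I and 3 in printed, with 1 lower each in fibrin and collagen I.

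Among the amino acid and other metabolic enzymes, Hao2, a peroxisomal hydroxyacid oxidase, rose in Matrigel (1.98 ± 0.29), fibrin (1.96 ± 0.33) and collagen I (1.61 ± 0.37) in the authors' deposited table. Glyat, which joins glycine to acyl-CoA, rose in the same 3 gels (1.01 ± 0.19, 0.73 ± 0.22 and 1.20 ± 0.24). Pipox, which oxidises pipecolic acid and sarcosine, rose in Matrigel (1.95 ± 0.26) and fibrin (1.64 ± 0.31) but was at -0.08 ± 0.34 in collagen I in the authors' deposited table. In printed these were at 0.77 ± 0.32, 0.50 ± 0.25 and 0.42 ± 0.32, with no call. The limma fit did not keep the calls of Pipox (adjusted p 0.11 in Matrigel and 0.12 in fibrin) or of Hao2 in collagen I (0.052).

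Steroid-receptor targets and tubule regulators were also followed. In the authors' deposited table, Zbtb16, a glucocorticoid-induced regulator, fell in fibrin (by 1.54 ± 0.37) and collagen I (by 1.13 ± 0.38), Klf9 fell in collagen I (by 0.74 ± 0.25) and Dusp1 in Matrigel (by 0.67 ± 0.19). Sgk1, a kinase induced by corticosteroids, rose in Matrigel (0.79 ± 0.24) and printed (0.85 ± 0.26) in the authors' deposited table. The limma fit did not keep the calls of Dusp1 (adjusted p 0.21) and Sgk1 (0.064) in Matrigel. Of the proximal tubule transcription factors, Maf fell in fibrin (by 1.04 ± 0.31) in the authors' deposited table. Hnf4a, a regulator used in making such cells, lay between -0.39 ± 0.19 and 0.23 ± 0.20 with no call in the authors' deposited table.

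The labelled cell type was checked on 13 proximal tubule markers. The endocytic receptors Lrp2 and Cubn were abundant, with mean reads from 19301 to 24583 and from 1484 to 2391 in the authors' deposited table, and both rose in Matrigel (0.56 ± 0.16 and 0.73 ± 0.19). The other 11 markers, which include the transporters Slc34a1, Slc5a2 and Slc22a6, summed to between 125 and 291 normalized reads per library. Most of that sum came from Slc5a1, with group means of 97.4 to 179 normalized reads, and Slc3a1, with 24.6 to 59.3. Slc22a6 had a mean of at most 0.98 reads and Slc5a2 of at most 1.78 in any authors' deposited table, so Slc22a6 and Slc5a2 were at or near 0.

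Markers of other cell types were present and varied between conditions. The 4 immune markers with reads summed to 788 to 1113 normalized reads in printed, 434 to 620 in 2D, 293 to 409 in fibrin, 172 to 226 in collagen I and 164 to 208 in Matrigel. Csf1r, at a mean of 722 reads in the authors' deposited table for printed, made most of it. With limma, Csf1r passed as lower in Matrigel (-1.51 ± 0.22) and collagen I (-1.68 ± 0.22) and as higher in printed (0.86 ± 0.22). Itgam passed as higher in fibrin (2.39 ± 0.58) and collagen I (2.07 ± 0.58). The immune sum thus follows Csf1r and does not show the changes of Itgam. The 10 recovered fibroblast markers summed to 194 to 730 in Matrigel and 394 to 511 in 2D, hepatocyte markers to 157 to 285 in Matrigel and 44.3 to 148 in 2D, endothelial markers to 1.98 to 10.4 and 6.82 to 33.4, and markers of later nephron segments to 149 to 161 and 150 to 284. Vim, also on the fibroblast list, was too abundant for its reads to be recovered and is not in that sum. It had means of 4996 to 6472 reads in the authors' deposited table and passed in none. The sums of the fibroblast and hepatocyte markers do not show changes that differ between their genes. In the limma fit S100a4 passed as higher in fibrin (1.27 ± 0.24), collagen I (1.76 ± 0.24) and printed (1.80 ± 0.24). Col1a1 passed as lower in collagen I (-2.91 ± 0.81) and Pdgfra in fibrin (-1.92 ± 0.59), and in Matrigel 0 of the 5 fitted fibroblast markers passed. The part of these differences in the results above was not tested. In bulk RNA, fewer cells with a transcript and less of it per cell cannot be told apart.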

How the data were processed

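RNA-seq of 15 mouse libraries was deposited by the authors as 4 tables, each setting a microenvironment against 2D (3 libraries a group). The submitters' processing notes name mm10 with STAR 2.6.0b-1 and, in no order, DESeq2 1.22.1, featureCounts 1.6.3, Trim Galore 0.4.3 and FastQC 0.72. Strand setting, annotation and model terms: not given in the sources used here. In each table, the deposited base mean is a signal: the mean over 6 libraries of reads divided by size factors. The deposited fold change and its standard error are on a log2 scale, the deposited Wald statistic is a score, and the authors' p-values and adjusted p-values come with them. Columns of values per sample number 0.

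Genes read once in a single library gave that library's size factor. The whole counts of 15 libraries that gave all 4 deposited base means to the last of 15 digits were found by lattice reduction (sympy 1.14.0) for 15374 of 15374 genes with base means up to 2000, and 5616 genes above that were not attempted. The search was tested on simulated data. Signs matched the deposited fold changes in 100% of 5736 genes compared, where these were above 0.2 in size. The search itself started from counts set by the deposited fold changes. Neither this match nor the median gap given above is therefore an independent check of the recovery. Recovered reads were scaled by median ratios over 6448 genes. limma 3.58.1 with a trend was fitted to log2(normalized reads + 1) for 8369 genes with a mean of at least 10, chosen after seeing the data. Differences between microenvironments used the deposited fold changes and standard errors with a normal test and Benjamini-Hochberg adjustment. They ignore the shared 2D libraries, and the threshold was 0.05. Deposited fold changes can lie much closer to no change than recovered ones, as for Gatm in Matrigel (-0.91 against -3.21). Differences built on them carry this over, so a small difference of a low gene does not show equal levels. The settings above, other filters, an empirical null, a pseudocount of 8 and leaving out each library were tried.

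The members and the lists were chosen with earlier results of these data known. Named list genes are up to 4 per list with the largest change among those that passed in a table at a base mean of at least 20, other genes being named after their values were seen, and a few results are not reported here. Motif and exon data came from RefSeq (GRCm38.p6) and GENCODE, and 3.22% of gene identifiers had no symbol.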

Additional observations from a re-analysis of the deposited data

How the results depend on the processing

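No paired analysis was possible because the recovered libraries carry no passage label and the deposited tables hold no values per sample. Members called against 2D, Kap not counted, numbered 4 in Matrigel, 1 in fibrin, 2 in collagen I and 1 in printed. With no filter, a base mean of at least 100 or an empirical null, Matrigel kept 3 (Gatm was not called). A base mean of at least 100 gave 2 in fibrin, with Ass1 added, and the empirical null gave 1 in collagen I, without Acsm2. limma on recovered reads called 2 in Matrigel (Gatm and Ass1) and 1 in collagen I (Ass1) under each of its settings. In fibrin its 1 call was Ass1 and not Acsm2, and it made 0 calls with no filter. Leaving out a library gave 1 to 3 in Matrigel (1 without 2D c), 0 to 1 in fibrin (1, Ass1, without fibrin b), 1 to 1 in collagen I and 1 to 1 in printed. Members differing between microenvironments numbered 0 for Matrigel and fibrin (1 with a standard error for shared 2D libraries or an empirical null, both times Ces2b), 0 for Matrigel and collagen I (1 with that standard error), 2 for Matrigel and printed (1 with limma, 0 with limma and no filter), 0 for fibrin and collagen I (1 with the empirical null, Ass1), 1 for fibrin and printed (2 with that standard error, 0 at base means of at least 100) and 0 for collagen I and printed (1 with that standard error, Acsm2). Leave-one-out limma fits gave 0 to 1 for each of these pairs, except 0 to 0 for fibrin and collagen I. With limma, Khk in Matrigel turned to 0.02 and Acsm2 in printed to -0.18 on the log2 scale, neither called. The cause of these changes was not tested. Gatm and Miox rest on few reads, and their precision is limited by counting.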

Other observations

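Genes with exactly 1 read in a single library and none in the other 5 of a table were fewer than genes with exactly 2 such reads, in every library of every table. In the authors' deposited table for Matrigel, library a of 2D had 38 genes of the first kind and 157 of the second, and library b of Matrigel had 34 and 177. What sets this excess of 2 over 1 was not tested.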
